A study of Fukomys damarensis and Heterocephalus glaber and Mus musculus with 160 samples.

Results

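Liver-only active enhancers of the guinea pig (Cavia porcellus) are described here. They were chosen by peak lists of 3 histone marks, and 21791 regions met the rule, out of 97142 regions that meet the same rule in the 4 rodent species of the series. A member is a liver region with H3K27ac and H3K4me1, without H3K4me3, and without any of the 3 marks in heart. In each tissue and mark a consensus was first built from peaks that overlapped a peak of another animal by at least 50% of the shorter of both, merged across animals, and the same 50% overlap decided every further step. Of 66360 liver H3K27ac consensus regions, 45630 overlapped one of the 90440 liver H3K4me1 regions and 13597 overlapped one of the 14454 liver H3K4me3 regions. Those with H3K4me1 and no H3K4me3 are called active enhancers, and numbered 35504. Members were 61.4% of them. The other 13713 also overlapped a consensus region of a heart mark and are called shared active enhancers. The mirrored rule in heart gave 23962 active enhancers, of which 10768 had no liver mark and are called heart-only.

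The study profiled histone marks in liver and heart of mouse, guinea pig and both mole-rats, the naked and the Damaraland mole-rat, by chromatin immunoprecipitation and sequencing (ChIP-seq), in which an antibody pulls down the DNA wrapped around histones carrying a mark. The guinea pig lists came from 3 adult wild-type males aged 2.3 months, called animals 7, 8 and 9 after their labels. Both organs of each animal were used, which gives 18 lists of peaks, 1 for each animal, tissue and mark. No treatment or engineered allele is named for any of them, and the liver was perfused with buffered saline before it was diced, per the labels' protocols.

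Enhancers are stretches of DNA away from gene starts that raise the transcription of a gene when bound by transcription factors. H3K4me1, a single methyl group on lysine 4 of histone H3, lies on enhancers whether or not they are in use. H3K27ac, an acetyl group on lysine 27, is added by the acetyltransferases p300 and CBP and marks enhancers and promoters in use. H3K4me3, the trimethylated form of lysine 4, marks the promoters of genes that are transcribed or poised. Enhancers differ between tissues more than promoters do, and in liver they are the places where factors of the hepatocyte, the main liver cell, bind near genes for plasma proteins, lipid transport and detoxification.

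The liver lists held 91478 to 100473 H3K27ac peaks, 119768 to 136264 H3K4me1 peaks and 14782 to 16530 H3K4me3 peaks. The heart lists held 79688 to 97784 H3K27ac peaks, 90479 to 130362 H3K4me1 peaks and 21481 to 24629 H3K4me3 peaks. The lists carry no read counts, so the depth behind a peak is unknown. No pair of lists of 1 mark was a copy of another, since the highest Jaccard index (shared bases over all bases covered) among 45 pairs was 0.806. The library identifiers in the labels fall in separate ranges for liver and heart, and in heart those of animal 9 have another prefix (vl) than the rest (do). What the ranges and prefixes stand for is not stated, so tissue and identifier range cannot be told apart. Whole tissue was used, so a mark carried by few cells and a weak mark carried by many cannot be told apart either. Tissue markers, neighbouring genes and DNA sequence were not analysed here, and regions are given by scaffold, start and end on the build Cavpor3.0.

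Most members were seen in every animal. A liver H3K27ac peak covered 15308 members, or 70.2%, in all 3 animals, and the remaining 6483 were covered in 2. Animal 7 lacked the H3K27ac peak at 2276 members, animal 8 at 1904 and animal 9 at 2303. H3K4me1 was present at 17600 members in 3 animals, at 3590 in 2 and at 601 in 1, where overlap with single lists is counted after the consensus was merged. Both marks in all 3 animals were found at 13473 members. When each animal's 6 lists were classed on their own, without any consensus, animal 7 had 34461 liver-only active enhancers, animal 8 had 33369 and animal 9 had 28403. They made up 63.4%, 65.6% and 59.9% of the liver active enhancers of those animals (63.0% ± 2.87, SD, n = 3). The share was lowest in animal 9, which also had the heart H3K4me1 list with the most peaks, 130362.

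Members were narrow, and a few were very wide. The consensus regions had a median width of 1086 bases, with the middle 50% of them between 652 and 1971 bases and the extremes at 263 and 32610 bases. A consensus region is the union of the animals' peaks, so it is at least as wide as each peak merged into it. The peaks of single animals inside members had median widths of 688, 692 and 648 bases in animals 7, 8 and 9. Shared active enhancers had a median of 1396 bases and heart-only ones 824 bases. Width enters the overlap rule, so these medians are descriptions and no test was made. Members of at least 5000 bases numbered 755, or 3.46% of members, and held 15.5% of the 34.5 Mb that all members covered. Only 78 members reached 10000 bases.

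The strength of a peak is given as the authors' fold enrichment, the value MACS2 writes for a peak's signal over its control, and it serves here to describe and rank peaks. For a member it is the highest fold among the peaks that overlap it. The median H3K27ac fold of members was 5.86 in animal 7, 6.05 in animal 8 and 5.78 in animal 9 (5.90 ± 0.14, SD, n = 3). Shared active enhancers had medians of 6.91, 6.24 and 6.57 in the same animals, each above that of the members. Since fold comes from the lists that chose the members, this too has no test. H3K4me1 fold at members had medians of 7.16, 6.28 and 5.76, against 7.91, 6.31 and 6.31 at shared active enhancers. For scale, liver H3K27ac regions that overlapped H3K4me3 had a median mean fold over animals of 21.2, those with neither H3K4 mark 4.72, and all members 5.67.

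Wide members tended to have a higher fold and a peak in every animal. Across the 21791 members, width and mean H3K27ac fold had a Spearman rho of 0.79, a description across regions whose widths and folds come from the same peaks. Members were divided into 4 equal groups by width. In the narrowest group the median fold was 4.25 and 26.3% had a peak in 3 animals. The next groups had medians of 4.99 and 6.41. The widest group had a median of 11.3, and 99.4% of it had a peak in 3 animals. A member is the union of the animals' peaks, so width and the number of animals with a peak are linked by construction. H3K4me1 fold moved less over the same groups, from a median of 5.90 in the narrowest to 7.56 in the widest, and its Spearman rho with H3K27ac fold was 0.31. Members with a peak in 3 animals had a median fold of 6.86, and those with a peak in 2 animals had 4.36. A mean fold of at least 10 was reached by 4054 members, or 18.6%, and one of at least 20 by 708 members, or 3.25%.

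The animals ranked the members alike to a moderate degree. Among the 15308 members with a peak in every animal, Spearman's rho of the H3K27ac fold was 0.66 between animals 7 and 8, 0.68 between 7 and 9 and 0.68 between 8 and 9. The highest animal exceeded the lowest by a median of 1.57 times at these members, and at 5% of them by 2.61 times or more. The highest value lay in animal 7 at 5027 of them, in animal 8 at 6066 and in animal 9 at 4215. The strongest H3K27ac peaks of any pair of animals at a member had summits a median of 104 to 111 bases apart. Within an animal the H3K27ac summit lay a median of 280, 305 and 262 bases from the H3K4me1 summit in animals 7, 8 and 9. Summits were taken from peaks that overlap the same member, so the widths of the member and its peaks limit these distances. No test was made of them.

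H3K4me1 extended beyond H3K27ac at many members. Of the members, 10396, or 47.7%, lay wholly inside an H3K4me1 consensus region, and 4363 others held a whole H3K4me1 region within them. More than 1 H3K4me1 region was overlapped by 2124 members. The 21492 H3K4me1 regions at members had a median width of 1640 bases, against 1143 bases for all liver H3K4me1 regions, and 2394 of them carried 2 or more members, up to 7.

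The 10 members with the highest mean H3K27ac fold among those seen in 3 animals had means from 43.2 to 64.4. The strongest, DS562910.1:2879820-2888307, is 8488 bases wide and had folds of 75.001 in animal 7, 54.9 in animal 8 and 63.2 in animal 9 (64.4 ± 10.1, SD, n = 3). Its H3K4me1 folds were 10.2, 7.68 and 8.65, and it lay 6.42 kb from a liver H3K4me3 region that heart lacks. The second, DS562882.1:18972534-18977034, had H3K27ac folds of 70.2, 59.1 and 50.0, had no other member within 78476 bases and was 7.25 kb from a liver H3K4me3 region that heart shares.

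The third, DS562931.1:6443046-6447326, had folds of 65.6, 45.4 and 48.0 and lay 5.14 kb from H3K4me3. The lowest fold of any animal at any of the 10 was 31.3. A pair of neighbours on one scaffold ranked 4 and 9. DS563100.1:247266-261602, 14337 bases wide, had folds of 47.2, 51.0 and 52.6, and DS563100.1:237599-247034, 231 bases before it, had 39.99, 52.9 and 37.5. They belong to a cluster of 5 members, and the nearest liver H3K4me3 region, 9.16 kb from the closer of both, was without heart H3K4me3.

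Ranks 5 to 8 fell on 4 scaffolds. DS562855.1:19176606-19187737 had folds of 48.3, 38.1 and 58.4, and was one of 8 members of its cluster. DS562947.1:5678172-5682685 stood alone, with folds of 41.3, 51.9 and 45.9. Both were nearest to a liver H3K4me3 region that heart also carries.

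DS562869.1:7108048-7119623 had folds of 58.2, 42.1 and 38.7, and DS562870.1:36113439-36119660 had 41.0, 39.2 and 58.3. Each of these lay within 6.84 kb of a liver H3K4me3 region without heart H3K4me3. The tenth, DS562856.1:79687816-79697110, had folds of 48.7, 31.3 and 49.6 and was far from liver H3K4me3, at 572 kb, and 521243 bases from the next member. Of the 10, 5 were nearest to a liver H3K4me3 region that heart lacks, including both neighbours on DS563100.1, which share their nearest region. Among all members this share was 17.8%. A peak in 1 or 2 of the 9 heart lists lay at 4 of the 10 (DS562910.1, DS562931.1, DS562855.1 and DS562856.1). Among all 21791 members, 3832 had a peak in 1 or more heart lists. No test was made of these counts. H3K4me1 fold singled these 10 members out less than H3K27ac fold did. Their mean H3K4me1 folds ran from 6.76 to 11.3, all above the median of all members, 6.45. The middle 50% of all members lay between 5.30 and 7.84.

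**Figure D1:**
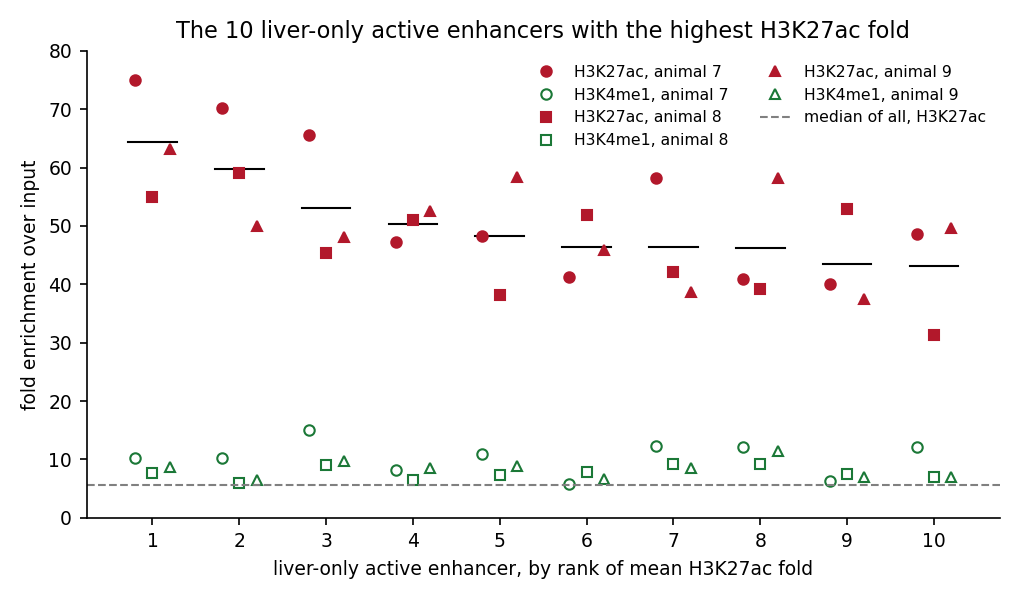
H3K27ac (filled) and H3K4me1 (open) fold enrichment over input in animals 7, 8 and 9 at the 10 liver-only active enhancers with the highest mean H3K27ac fold, on a linear axis, with a black bar at the mean H3K27ac fold and a dashed line at the median of all members, 5.67. Every H3K27ac point lies at 31.3 or above, while the H3K4me1 points lie between 5.79 and 15.0.

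The 5 widest members were strong as well, and the weakest of them exceeded 98.6% of members in mean fold. The widest, DS562912.1:2123289-2155898, spans 32610 bases and had folds of 41.8, 23.1 and 27.6. DS562860.1:9551404-9575809 spans 24406 bases and had 16.1, 38.8 and 35.2, so that animal 7 was the low one here and the high one at the widest. The other three, DS562878.1:20073897-20092608, DS562857.1:44284389-44302969 and DS562882.1:22446624-22464093, measured 18712, 18581 and 17470 bases with mean folds of 27.8, 24.8 and 34.2. Their mean H3K4me1 folds, 9.64 to 12.2 over the 5, were above the median of all members, 6.45.

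Members lay far from promoter marks. From the consensus regions, the median distance to the nearest liver H3K4me3 consensus region was 29.985 kb, and the middle 50% lay between 10.1 and 81.0 kb. Under 5 kb were 3009 members, or 13.8%. Between 5 and 20 kb were 5670, between 20 and 50 kb 5094, between 50 and 100 kb 3357, between 100 and 500 kb 3847, and 751 were at 500 kb or more. The 63 members on scaffolds without liver H3K4me3 have no distance, and 28 members touched an H3K4me3 region by less than the 50% the rule asks for. Fold varied little with distance: its median was 5.34 under 5 kb, 5.69 at 20 to 50 kb and 6.31 at 500 kb or more, with a Spearman rho of 0.071 across members.

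The distance was compared by animal, from each animal's own liver H3K27ac peaks to its own liver H3K4me3 peaks, which the rule did not use beyond overlap. Peaks in members were a median of 28.1 kb away in animal 7, 29.7 kb in animal 8 and 31.9 kb in animal 9. Peaks in shared active enhancers were 19.2, 21.8 and 23.0 kb away. The animals' values for members (29.9 ± 1.92 kb, SD, n = 3) and for shared active enhancers (21.4 ± 1.95 kb) did not overlap, and members were further in 3 of 3 animals, by 8.56 ± 0.61 kb. The two-sided exact permutation test gave p = 0.1 (adjusted p = 0.175 over 7 tests), and 0.1 is the smallest value 3 animals against 3 can give. This test can therefore not reach 0.05 in any comparison here, and no test that assumes a distribution was run. With shared active enhancers limited to those without heart H3K4me3, which 2054 of the 13713 carried, a restriction chosen after the data were seen, the difference was 6.90 kb.

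The sets also differed in the far tail. In animals 7, 8 and 9, 19.5%, 20.2% and 22.3% of the peaks in members were 100 kb or more from H3K4me3, against 9.90%, 11.1% and 12.4% of those in shared active enhancers. Heart-only active enhancers, measured to heart H3K4me3, had 15.5%, 15.1% and 14.5% there. At 500 kb or more were 3.11%, 3.22% and 3.798% of the peaks in members, and 0.382% to 0.578% of the peaks in either other set. The 751 members at that distance lay on 86 scaffolds, with at most 56 on one. This tail was noticed in the data and was not tested.

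Between members and heart-only active enhancers, the order of the medians depended on the processing. Heart-only medians were 28.6, 28.2 and 26.5 kb, so that animal 7 had the larger value in heart and animals 8 and 9 in liver. The difference of 2.15 ± 2.99 kb had an exact permutation p of 0.3 (adjusted p = 0.35). With no list left out, the animals' values separated, with members further, under 5 settings (exact permutation p = 0.1 in each). The differences were 3.56 kb with a −log10 q of 4 or more, 3.21 kb with 80% overlap and 3.40 kb without peaks in any single heart list. They were 3.55 kb with all 3 animals required and 1.96 kb to consensus H3K4me3 regions. Some settings with 1 list left out separated too. Examples are 2.59 and 3.65 kb without the heart H3K4me1 list of animal 8 or 9 (exact permutation p = 0.1 in each). The animals' values separated the other way, by -4.65 kb (exact permutation p = 0.1), when every list of a mark was cut to an equal number of peaks. Without the liver H3K27ac list of animal 9 the difference was -0.19 kb. The liver had 14454 H3K4me3 consensus regions and the heart 20031. To an H3K4me3 region of either tissue, the median distance was 26.1 kb from members, 27.3 kb from heart-only and 12.2 kb from shared active enhancers. The rule allows an overlap with heart H3K4me3 only in shared active enhancers, 2054 of which had one. The class definition thus lowers their distance, and no test was made of these medians.

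**Figure D2:**
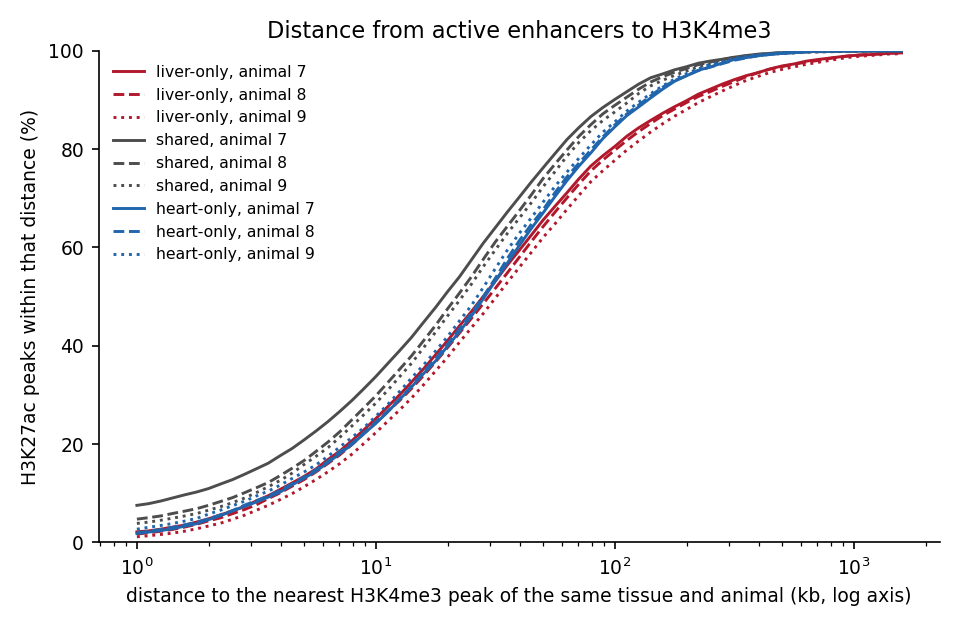
Cumulative share of H3K27ac peaks (vertical, %) within a given distance of the nearest H3K4me3 peak of the same tissue and animal (horizontal, kb, log axis), for peaks in liver-only, shared and heart-only active enhancers, with 1 line per animal. The shared lines rise first, with medians of 19.2 to 23.0 kb against 28.1 to 31.9 kb for liver-only, and the liver-only lines reach 100% last.

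The 3 members with a peak in all 3 animals that lay furthest from liver H3K4me3 had mean folds of 5.24, 4.53 and 8.67, on both sides of the median of all members, 5.67. DS562905.1:234520-234991 and DS562905.1:235114-235605, 122 bases apart, were 4476 kb from H3K4me3, with folds of 4.32, 6.33 and 5.08 and of 5.27, 5.80 and 2.51. Neither had an H3K4me1 peak in animal 9. DS562860.1:36272178-36273938 was 4239 kb away and had folds of 10.4, 5.76 and 9.88. None of the 3 had a peak in any heart list.

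The promoter nearest to a member was more often one that heart lacks. Of all 14454 liver H3K4me3 regions, 1405, or 9.72%, did not overlap heart H3K4me3. Such a region was the nearest one for 3872 members, or 17.8%, for 7.65% of shared active enhancers and for 13.9% of all liver active enhancers. In each animal's own lists the shares were 22.8%, 21.5% and 18.7% for liver-only and 11.7%, 10.6% and 8.71% for shared active enhancers of animals 7, 8 and 9, while 13.9%, 12.5% and 10.8% of the animals' liver H3K4me3 peaks themselves were without heart H3K4me3. The share was higher for liver-only in 3 of 3 animals, by 10.7 ± 0.61 percentage points, without overlap between the groups. This comparison was added after the data were seen, and since heart lists enter both the class and the promoter's state, it is a description without a test. Members whose nearest H3K4me3 region heart lacks were a median of 22.7 kb from it and had a median fold of 6.07, against 31.6 kb and 5.60 for the other members.

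Many members lay close together. The nearest other member was a median of 3433 bases away, and the nearest other liver active enhancer of any class 1912 bases away, against 2798 bases for shared active enhancers. Another liver active enhancer was within 10 kb of 75.1% of members, of 72.0% of shared and of 73.9% of all liver active enhancers. In each animal's own lists the shares were 85.4%, 85.0% and 83.7% for liver-only and 82.6%, 81.6% and 80.6% for shared active enhancers. Liver-only was higher in 3 of 3 animals, by 3.10 ± 0.23 percentage points, and the groups did not overlap (exact permutation p = 0.1, adjusted p = 0.175). Heart-only active enhancers had another heart active enhancer within 10 kb in 81.1%, 79.8% and 78.4% of cases, 4.91 ± 0.51 percentage points below liver-only (p = 0.1 by the exact permutation test, adjusted p = 0.175). The tissues also differed in their number of active enhancers, by consensus 23962 in heart and 35504 in liver. Whether that number bears on these shares was not tested. With equal numbers of peaks per list the difference to heart-only was 2.18 percentage points and the one to shared 2.88, and the groups overlapped in both (exact permutation p = 0.2). Peaks with a −log10 q of 4 or more gave 7.48 percentage points to heart-only. The nearest liver active enhancer was under 1 kb away for 42.6% of members, and whether such neighbours are pieces of 1 broad stretch of signal was not tested.

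Neighbours tended to share their class. The nearest other liver active enhancer was itself liver-only for 78.5% of members, for 36.6% of shared and for 62.3% of all liver active enhancers. By animal the shares were 80.002%, 80.8% and 77.4% for liver-only and 36.0%, 38.6% and 35.7% for shared active enhancers, a difference of 42.6 ± 1.18 percentage points in the same direction in 3 of 3 animals. The same heart lists class a region and its neighbour, so this description, added after the data were seen, has no test. With growing gap the shares drew closer without meeting: for members the nearest one was liver-only in 84.4% of cases at gaps under 1 kb and in 71.8% at 50 kb or more, and for shared active enhancers in 29.8% and 52.0%.

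**Figure D3:**
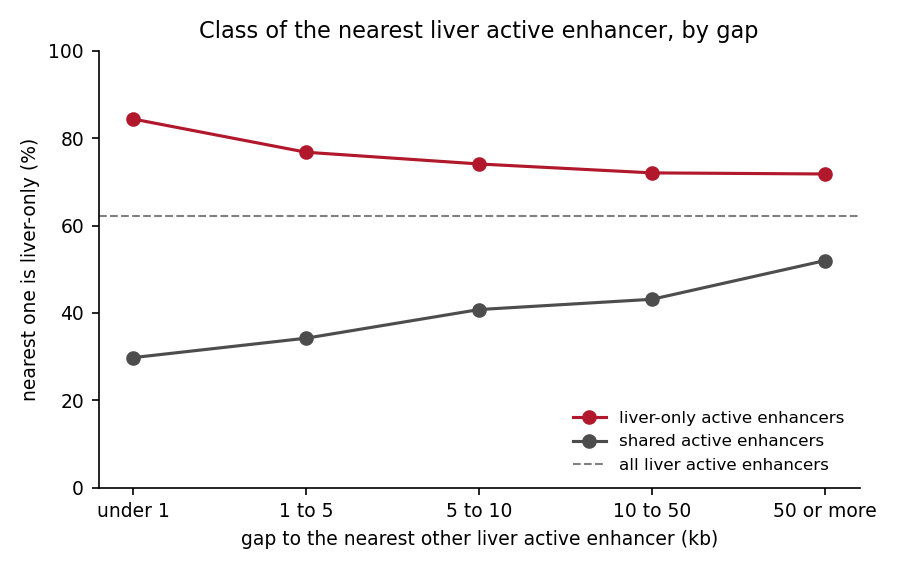
Share of liver-only and of shared liver active enhancers whose nearest other liver active enhancer is liver-only (vertical, %), by the gap to it (horizontal, kb, 5 ranges), with a dashed line at the share among all liver active enhancers, 62.3%. Liver-only stays above the line and shared below it in each range, and the distance between both is smallest at 50 kb or more, at 71.8% and 52.0%.

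Members within 10 kb of the next were joined into clusters. This gave 12379 groups, of which 7327 were single members, 2906 were pairs and 2146 held 3 or more. The 2146 clusters of 3 or more held 39.7% of members and had a median span of 12.7 kb. Clusters of 10 or more numbered 29, and the most members in one was 22. Joining at 5 kb gave 1565 clusters of 3 or more, and joining at 20 kb gave 2596. With a peak required in all 3 animals for every consensus region, 1298 clusters of 3 or more were left at 10 kb.

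Membership of a large cluster did not go with strong peaks. Median H3K27ac fold was 5.58 for single members, 5.81 in clusters of 3 to 4 and 5.45 in clusters of 10 or more, and median width was 1069, 1134 and 1181 bases. H3K4me1 fold had medians of 6.22, 6.64 and 7.12 in the same order. The share of members whose nearest liver H3K4me3 region heart lacks was 13.5% for single members, 19.1% in clusters of 3 to 4, 24.6% in clusters of 5 to 9 and 28.1% in clusters of 10 or more. Shared active enhancers lay within the span of 299 clusters of 3 or more, or 13.9%, and liver H3K4me3 within 8.34%. These are descriptions of members that share loci, and no test was made.

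The cluster with the most members, DS562884.1:602995-685561, packs 22 members into 82.6 kb, and they cover 50.2% of it. Median folds of its members were 6.19, 6.60 and 6.20 in animals 7, 8 and 9, and single members had mean folds from 3.61 to 18.1. A peak was present in 3 animals at 16 of the 22. The nearest liver H3K4me3 region was 26.5 kb away. Its span held 2 shared active enhancers, 2 heart H3K27ac consensus regions and 1 heart H3K4me1 consensus region. A peak in at least 1 single heart list lay at 5 of the 22 members. The map of that cluster shows the heart peaks found in more than 1 animal between 71.6 and 72.99 kb, toward one end of the span.

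**Figure D4:**
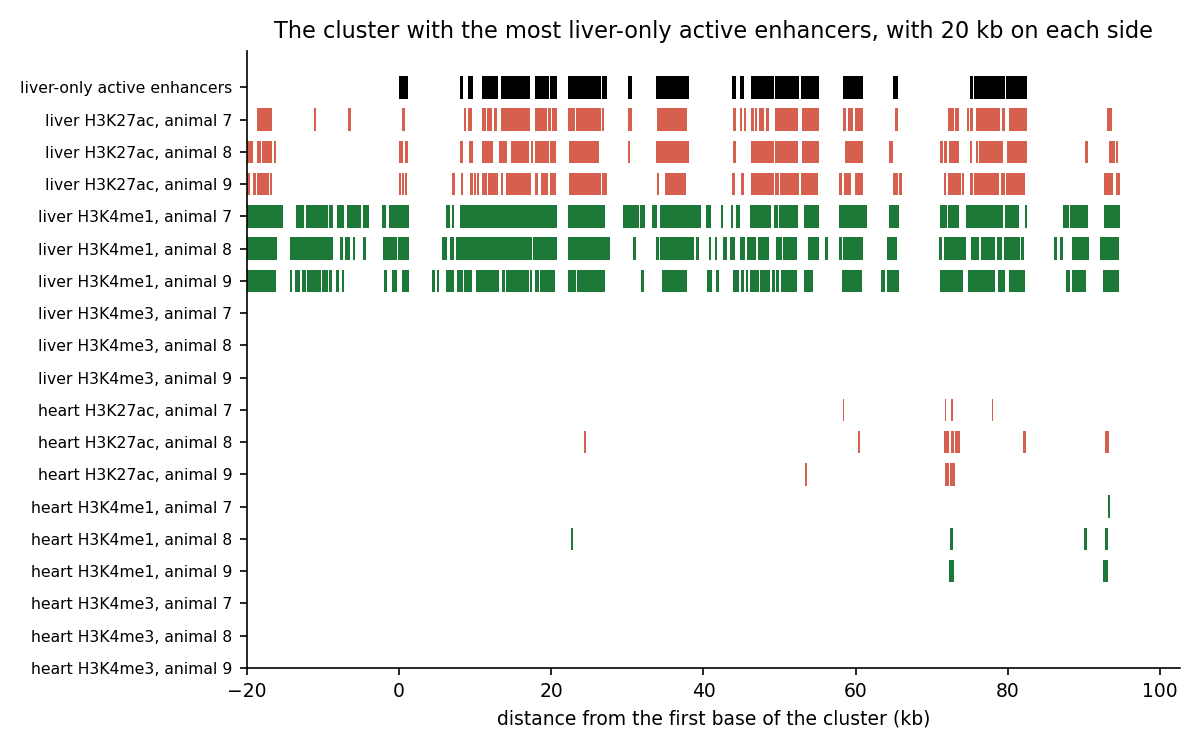
Map of the cluster with 22 liver-only active enhancers: each row is 1 list (tissue, mark, animal), each bar a deposited peak, and the horizontal axis is the distance in kb from the first base of the cluster. Liver H3K27ac and H3K4me1 peaks recur along the span in all 3 animals with gaps between them, liver and heart H3K4me3 rows are empty, and heart peaks present in more than 1 animal inside the span sit between 71.6 and 72.99 kb.

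The next 4 clusters held 15 to 18 members. DS562869.1:38873419-38932489 held 18 members in 59.1 kb, covered to 63.3%, with no heart consensus region of any mark in its span and liver H3K4me3 2.79 kb away. Its median folds were 5.17, 5.50 and 5.85. DS562879.1:14678995-14764997 held 17 members in 86.0 kb, with 1 liver H3K4me3 region and 3 heart H3K27ac consensus regions inside the span. DS562893.1:13420114-13475626 held 17 in 55.5 kb, with 1 heart H3K4me1 consensus region, and 4 of its members had a peak in a single heart list.

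The fifth cluster, DS562863.1:5390379-5455812, held 15 members in 65.4 kb, again with no heart consensus region in its span and with no peak of any single heart list at its members. Its members had mean folds from 3.37 to 21.1. In the 5 clusters, the median mean fold of the members ran from 4.90 to 6.66, close to the 5.67 of all members, and their highest member reached 11.004 to 21.1.

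Most members shared no base with a heart region. Those without any such overlap numbered 21017, and 774 overlapped one by less than 50%. At the threshold, 210 members had a highest heart overlap between 40% and 50%, with a median fold of 4.76 and a median width of 888 bases. The 249 active enhancers just outside, with 50% to 60%, had 5.03 and 892 bases. Peaks of single heart lists, which a consensus of 2 animals leaves out, overlapped 3832 members. Of these, 2745 had a peak in 1 heart list, 797 in 2, 229 in 3 and the few remaining in more than 3. By list, heart H3K27ac reached 458, 753 and 386 members in animals 7, 8 and 9, heart H3K4me1 reached 689, 1007 and 1925, and heart H3K4me3 reached 6, 30 and 38. The highest of these, 1925, was in the heart H3K4me1 list of animal 9, whose heart libraries carry identifiers with another prefix than those of animals 7 and 8. Members without a peak in any heart list numbered 17959, or 82.4%, which is 50.6% of liver active enhancers. Liver H3K4me3 peaks of single animals overlapped 145, 81 and 25 members.

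The classes were then measured in an animal that had not defined them. Regions were classed from 2 animals, with both required, and looked up in the lists of the third. Liver H3K27ac was found again at 87.2%, 88.8% and 86.3% of liver-only regions with animal 7, 8 or 9 held out, against 93.5%, 86.6% and 92.1% of shared regions and 88.5% of all liver active enhancers. The groups overlapped, with liver-only lower in 2 of 3 animals, by 3.29 ± 4.79 percentage points on average (exact permutation p = 0.3, adjusted p = 0.35). Liver H3K4me1 was found again at 95.9%, 93.7% and 87.9% of liver-only and at 97.7%, 89.7% and 90.6% of shared regions, against 92.5% of all. That difference, -0.12 ± 3.65 percentage points, had p = 1 in the exact permutation test.

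Heart marks in the held-out animal followed the class set by the other two. Any heart mark was present at 10.5%, 15.1% and 16.8% of liver-only regions, at 91.8%, 94.998% and 94.4% of shared regions, and at 41.6% of all liver active enhancers. Liver-only was lower in 3 of 3 animals, by 79.6 ± 1.83 percentage points, with no overlap between groups (exact permutation p = 0.1, adjusted p = 0.175). Heart marks of the other animals set the classes, so the rule itself favours this direction. The difference describes how far the animals' heart lists agree and is no separate trait of members. By mark, heart H3K27ac was found at 5.03%, 8.09% and 4.32% of liver-only regions, heart H3K4me1 at 7.35%, 10.4% and 14.6%, and heart H3K4me3 at 0.222% to 0.339%. Animal 9, whose heart H3K4me1 list has the most peaks, had the highest H3K4me1 share in liver-only, shared (80.4%) and all regions alike.

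**Figure D5:**
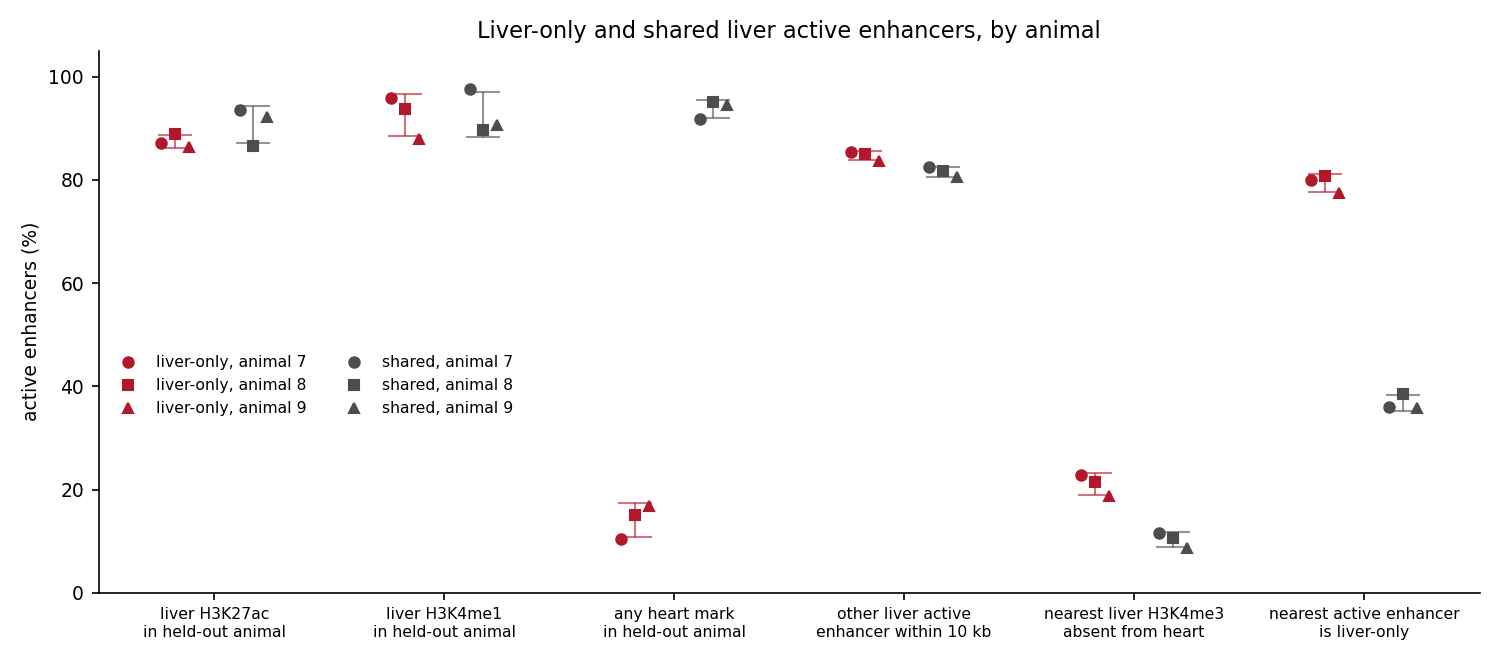
Share of liver-only (red) and shared (grey) liver active enhancers (vertical, %) in 6 measures, with 1 symbol per animal and bars of ±1 SD around the mean of 3 animals; the 3 measures on the left use an animal that did not class the regions, the others each animal's own lists. Both liver marks in the held-out animal overlap between the classes, and any heart mark separates them, at 10.5% to 16.8% against 91.8% to 94.998%.

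Members were spread over 276 scaffolds, and 98.2% of them lay on scaffolds with a peak end at 1 Mb or beyond. On the 51 scaffolds with at least 200 liver active enhancers, the share that were members had a median of 61.1%. It was highest on DS562890.1, with 230 of 297, or 77.4% (95% Wilson interval 72.4% to 81.8%, counting error only), and lowest on DS562908.1, with 111 of 283, or 39.2% (33.7% to 45.0%). The interval lay above the share over all scaffolds, 61.4%, on 19 of these scaffolds and below it on 13. Neighbouring regions are not independent, so the intervals are too narrow for a test.

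The same rule in the other species gave 33196 liver-only active enhancers in naked mole-rat, 28925 in Damaraland mole-rat and 13230 in mouse, which were 70.8%, 61.7% and 53.9% of their liver active enhancers, against 61.4% in guinea pig. Each species has its own genome build and 2 to 6 lists per tissue and mark. Ages differed as well: by the labels the mice were slightly younger than the guinea pigs, and both mole-rats were older. These values therefore stand side by side without a test. In every species of the series the liver-only regions were narrower than the shared ones, by median, and further from liver H3K4me3. The guinea pig had the widest liver-only regions, at a median of 1086 bases against 604 to 928 in the other three. Its median distance to liver H3K4me3 of 29.985 kb was near the 29.6 kb of Damaraland mole-rat, while naked mole-rat and mouse had 19.0 and 19.3 kb.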

How the data were processed

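The 18 guinea pig peak lists were used as deposited. Peaks were called with MACS2, per the submitters' processing notes; its version, the aligner and the thresholds are not recorded in what was used here. The deposited columns hold the authors' fold enrichment over input (a ratio), −log10 p and −log10 q values, a score, peak bounds and summit. The lowest deposited −log10 q in any list was 1.30. Each list was called for 1 animal against an input of that animal and tissue, per the file names. The build is Cavpor3.0.

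Overlaps, consensus regions, distances and clusters were computed with SciPy 1.17.1, pandas 2.3.3 and NumPy 2.4.6 under Python 3.11.15; the interval code was tested on simulated data with known answers. The members, lists and tests were chosen with earlier results of these data known. Tests were two-sided exact permutation tests of 3 values against 3, with Benjamini-Hochberg adjustment over 7 comparisons; 2 comparisons added later were not tested. The labels name the same 3 animals in both tissues, so the numbers pair the samples, and exact sign-flip tests over animals served as the replicate block. Named regions are the 10 members with the highest mean fold and the 3 furthest from H3K4me3 (each with a peak in 3 animals), the 5 widest, and the 5 clusters with the most members. Alternatives were stricter peaks (−log10 q of at least 4), other overlaps, equal list lengths, other gaps, and leaving out each animal or list. Planned gene lists, tissue markers and motifs need a guinea pig annotation or genome and were not analysed here.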

Additional observations from a re-analysis of the deposited data

How the results depend on the processing

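The exact tests run here cannot pass 0.05 with 3 animals, so only direction and size are compared. Members stayed further from liver H3K4me3 than shared active enhancers by 6.90 to 9.97 kb, had a neighbour within the gap more often by 2.04 to 4.13 percentage points and any held-out heart mark less often (-80.6 to -76.3) under all alternatives tried. The held-out heart difference is the rule's own contrast, so its direction describes agreement between animals only. The untested differences ran from 9.87 to 11.7 (nearest promoter) and from 37.001 to 49.3 percentage points (nearest enhancer). With the replicate block, exact sign-flip tests gave p = 0.25, their lowest value with 3 animals, for the distance difference of 8.56 kb, for the 10 kb neighbour differences of 3.10 and 4.91 percentage points and the held-out heart difference of -79.6; p was 0.5 for held-out H3K27ac and for liver-only against heart-only distance, and 1 for held-out H3K4me1. The smallest possible p was 0.1 for the exact permutation test and 0.25 for the sign-flip test, so the pairing could change no call at 0.05.

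The liver-only share of 61.4% became 65.7% when peaks had to reach a −log10 q of 4, 57.9% when 1 shared base sufficed, 65.3% with 80% overlap, 50.6% without peaks in any single heart list and 66.1% with all 3 animals required. The median width of 1086 bases became 1296 (−log10 q of 4), 1164 (80% overlap), 1289.5 (equal list lengths), 1053 (no single heart list) and 1531 (all 3 animals). The median fold of 5.67 became 6.45 (−log10 q of 4), 5.48 (1 base), 5.99 (80%), 6.45 (equal list lengths) and 7.09 (all 3 animals). Clusters of 3 or more fell to 1298 with all 3 animals required. Held-out H3K4me1 turned to 0.30 percentage points with 1 shared base, and the liver-only minus heart-only distance turned to -4.65 kb with equal list lengths; the cause was not tested.

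Leaving out 1 animal or list gave 18494 to 23115 members, a share of 60.1% to 67.0%, median widths of 1085 to 1185 bases, median folds of 5.66 to 6.47, 1727 to 2325 clusters, and a liver-only minus heart-only distance of -0.19 to 4.12 kb, negative only without the liver H3K27ac list of animal 9. Requiring all 3 animals gives no new value for comparisons made in each animal's own lists.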
